A study of Mus musculus with 36 samples.

Results

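The 8 genes described here are the interferon-induced members of the TRIM family that were chosen by name from the count table of 54532 genes: Trim30a, Trim30b, Trim30c, Trim30d, Trim12c, Trim34a, Trim21 and Trim25. RNA-seq was performed on bone marrow-derived macrophages (BMDMs) of adult female C57BL/6 mice. WT cells carried floxed alleles of Bmal1 without Cre (Bmal1 flox/flox, n = 3 replicates), and KO cells carried the same alleles with Cre recombinase driven by the myeloid LysM promoter (LysM-Cre;Bmal1 flox/flox, n = 6 replicates). Cells of each genotype were exposed for 6 h to vehicle (DMSO), 100 µM of the BMAL1 ligand CCM, 100 nM LPS, or LPS with CCM, so the floxed alleles were shared by every group. LPS, a component of the outer membrane of Gram-negative bacteria, is detected by macrophages through TLR4. BMAL1 is a core transcription factor of the circadian clock, and CCM (Core Circadian Modulator) is a small molecule that binds its PASB domain.

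TRIM proteins are E3 ubiquitin ligases built from a RING domain, B-box domains and a coiled coil, usually with a further domain at the C terminus that recognises the target. Many of their genes are induced by type I interferon. In macrophages, LPS leads to secretion of interferon-β, which binds its receptor on the same and neighbouring cells and, through receptor-associated kinases and a transcription factor complex that holds IRF9, activates genes that carry an interferon-stimulated response element (ISRE). TRIM25 is known for adding ubiquitin chains to the RNA sensor RIG-I and as a cofactor of the antiviral protein ZAP. TRIM21 is a cytosolic antibody receptor that directs antibody-coated virus to the proteasome. TRIM30a restrains Toll-like receptor signalling by promoting loss of the adaptors TAB2 and TAB3. Trim12c is a mouse relative of the gene for the retroviral restriction factor TRIM5, and Trim34a of the interferon-induced human gene TRIM34.

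Between 13469262 and 28288923 read pairs per library were assigned to genes, with a median of 19951421. Macrophage markers summed to 2909 to 6103 CPM (the read pairs of a gene as parts per 10 to the power of 6 of the TMM-scaled library total) across the 36 libraries, and all 6 had a mean of at least 1 CPM. The 4 B cell markers summed to 0.641 to 2.85 CPM, the 4 T cell markers to 0.587 to 7.94, the 5 dendritic cell markers to 2.11 to 6.85 and the 4 erythroid markers to 1.2 to 10.4. The 7 neutrophil markers summed to 425 to 1151 CPM and the 5 fibroblast markers, mostly the collagens, to 302 to 1660, so RNA of these types was present in every library and its part in the results was not tested. In bulk RNA, fewer cells of a type and less RNA per cell cannot be told apart. The Bmal1 transcript, Arntl, was at 7.52 to 12.9 CPM in the 12 WT libraries and 2.02 to 10.8 in the 24 KO libraries, which overlap. This count covers the whole gene, undeleted exons included, and is therefore no measure of the deletion itself.

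A set of KO libraries stood apart. As a measure of length dependence, each library was set against the mean of the WT libraries of the same treatment. The median deviation of 719 short genes (under 1000 bases) was compared with that of 3748 long genes (6000 bases or more). In 30 libraries the difference lay between -0.15 and 0.22 on the log2 scale. In the 4 libraries of KO replicate 6 it was 1.73 to 2.02, and in LPS+CCM it was 0.67 in KO replicate 2 and 1.23 in KO replicate 5. Relative to the unshifted KO libraries of the same treatment, KO replicate 6 had lower Trim30a by 0.86 to 1.33, lower Trim21 by 0.92 to 1.31 and lower Trim25 by 0.38 to 0.66 in log2 CPM, and higher Trim12c by 0.53 to 1.08. The part of this shift in the KO results was not tested, and KO results are therefore given with and without these 6 libraries. No WT library was shifted by this measure, although each WT library is part of the mean it was compared with.

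**Figure D1:**
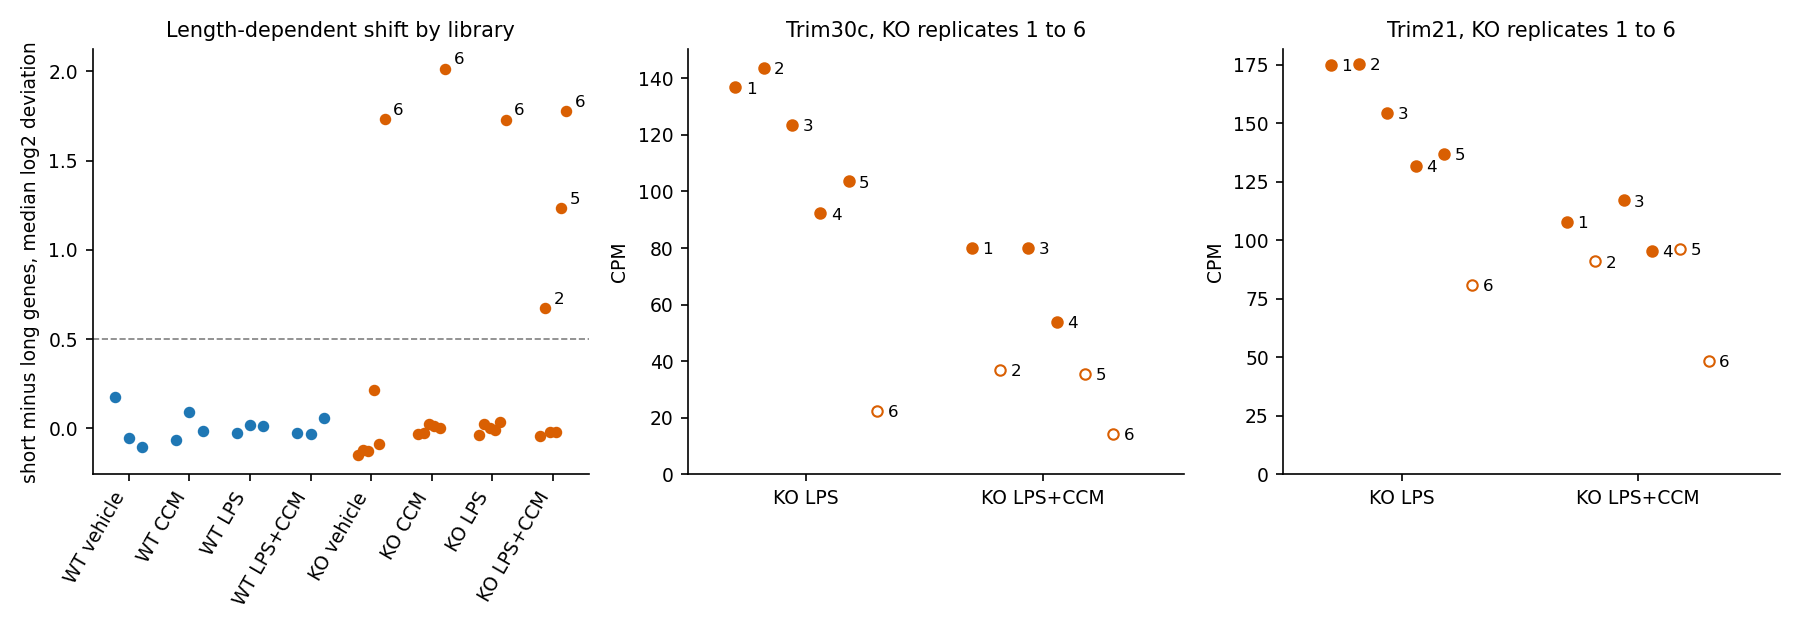
Left, difference between short and long genes in their median log2 deviation for each of the 36 libraries (WT blue, KO orange). Deviations are from the mean of the WT libraries of the same treatment. Numbers name KO replicates above the dashed line at 0.5, which are 6 libraries. Middle and right, CPM of Trim30c and Trim21 in each numbered KO replicate with LPS and with LPS+CCM (open circles, shifted libraries); replicate 6 is the lowest in each group, and Trim30c in LPS+CCM replicates 2 and 5 lies below that of replicates 1, 3 and 4.

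Of the 8 genes, 6 lie next to each other on mouse chromosome 7 within 263393 bases (GRCm38, chr7:104244457-104507849). In order, these are Trim34a (ENSMUSG00000056144, chr7:104244457-104262234, plus strand), Trim12c (ENSMUSG00000057143, chr7:104338754-104353362), Trim30b (ENSMUSG00000052749, chr7:104355382-104369884), Trim30c (ENSMUSG00000078616, chr7:104382065-104400837), Trim30a (ENSMUSG00000030921, chr7:104409025-104465193) and Trim30d (ENSMUSG00000057596, chr7:104470014-104507849), the last 5 on the minus strand. Trim21 (ENSMUSG00000030966, chr7:102557921-102565486, minus strand) lies apart on the same chromosome, and Trim25 (ENSMUSG00000000275, chr11:88999376-89020293, plus strand) on chromosome 11. All 8 intervals were those of GENCODE release M21. The values are read pairs summed over the exons of each gene, and some of these exons are nearly identical to those of a neighbour. Of the distinct stretches of 50 bases in the transcripts of Trim34a, 59.7% also occurred in another gene, chiefly Trim34b, and 39.0% of the stretches of 100 bases did. For Trim12c the shares were 33.7% and 8.05% (Trim5 and Trim12a), for Trim30d 7.49% and 4.57% (Trim30a) and for Trim30a 5.98% and 4.41% (Trim30d). They were at most 1.48% and 0% for Trim30b, Trim30c, Trim21 and Trim25. Trim34a also shares 609 exonic bases with Gm47248 on the other strand, and Trim12c 100 with Gm27995. How reads with several placements were counted, and whether strand was used, is not given in the sources used here, so the values of Trim34a in particular, and of Trim12c, are uncertain. Trim5 and Trim12a themselves were at no more than 0.39 CPM and 0.19 CPM with LPS in either genotype.

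Sequence upstream of the RefSeq start sites was read for all 8 genes (GRCm38.p6, 250 bases before to 50 after the start, 9 windows since Trim30a has 2 starts) and searched on both strands for the ISRE core (a GAAA and another GAAA separated by any 2 bases) and for the E-box CACGTG, the preferred site of BMAL1 with CLOCK. The ISRE core was found in 5 of the 8 genes, beside 3.44% of all 32851 promoter windows and 4 of 45 other TRIM genes in the table. The E-box was found in Trim25 alone, beside 7.15% of all windows. The windows below are the 80 bases that end just before the gene, in the direction of transcription, with the motif in capitals; they are shown because they hold the motifs, except that of Trim30c, which is shown as the gene with the largest LPS effect.
Trim30a (chr7:104465194-104465273): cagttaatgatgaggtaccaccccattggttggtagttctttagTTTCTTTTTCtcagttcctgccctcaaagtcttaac
Trim30d (chr7:104507850-104507929): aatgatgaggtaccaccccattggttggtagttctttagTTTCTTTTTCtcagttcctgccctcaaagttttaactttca
Trim30c (chr7:104400838-104400917): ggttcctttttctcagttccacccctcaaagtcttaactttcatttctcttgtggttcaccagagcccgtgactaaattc
Trim12c (chr7:104353363-104353442): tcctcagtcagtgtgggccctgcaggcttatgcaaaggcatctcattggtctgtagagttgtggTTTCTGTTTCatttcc
Trim25 (chr11:88999296-88999375): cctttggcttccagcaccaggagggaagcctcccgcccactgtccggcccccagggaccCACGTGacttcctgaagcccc
In Trim30a and Trim30d the match lies 36 and 41 bases before the start and both windows share an unbroken run of 69 bases, while the longest run Trim30c shares with them is 16 bases. In Trim12c the match lies 29 bases before the start, and the E-box of Trim25 lies 48 bases before its own. Distances are counted from the RefSeq start, which lies 13 bases inside the gene of the count table for Trim12c and 27 for Trim25. In Trim21 and Trim34a the matches lie just after the start, shown here as 30 bases around them.
Trim21 (chr7:102565447-102565476): ctgagagGAAACTGAAAGTGAAAtttggac
Trim34a (chr7:104244457-104244486): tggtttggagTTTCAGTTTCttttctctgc
In Trim21 there are 2 matches, at bases 14 and 20 counted from the start as base 1, which share a GAAA, and in Trim34a there is 1 at base 11. No match was found in the windows of Trim30b and Trim30c, and that of Trim30b starts 11238 bases inside the gene as the count table has it. A match is a run of letters and was not shown here to be bound.

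In unstimulated WT macrophages the 8 genes differed widely in level. Per kilobase of gene length, Trim25 stood highest at 31.2 ± 0.55 CPM per kb (mean ± SD, n = 3), followed by Trim30a at 15.6 ± 1.0, Trim12c at 10.1 ± 0.29 and Trim21 at 3.47 ± 0.21. Trim34a (0.793 ± 0.25), Trim30c (0.328 ± 0.14), Trim30d (0.283 ± 0.055) and Trim30b (0.0823 ± 0.051) were low. Of neighbours in this order, only Trim30c and Trim30d had ranges that overlapped. After LPS the order in WT was Trim30a (196 ± 2.5), Trim25 (80.5 ± 0.59), Trim30c (74.0 ± 2.4), Trim21 (43.6 ± 2.7), Trim30d (35.4 ± 2.4), Trim12c (31.6 ± 0.94), Trim34a (5.07 ± 0.30) and Trim30b (1.18 ± 0.22), and no neighbours overlapped. Trim30a thus replaced Trim25 as the highest of the 8 per kb, and Trim30c moved from 6th place to 3rd.

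**Figure D2:**
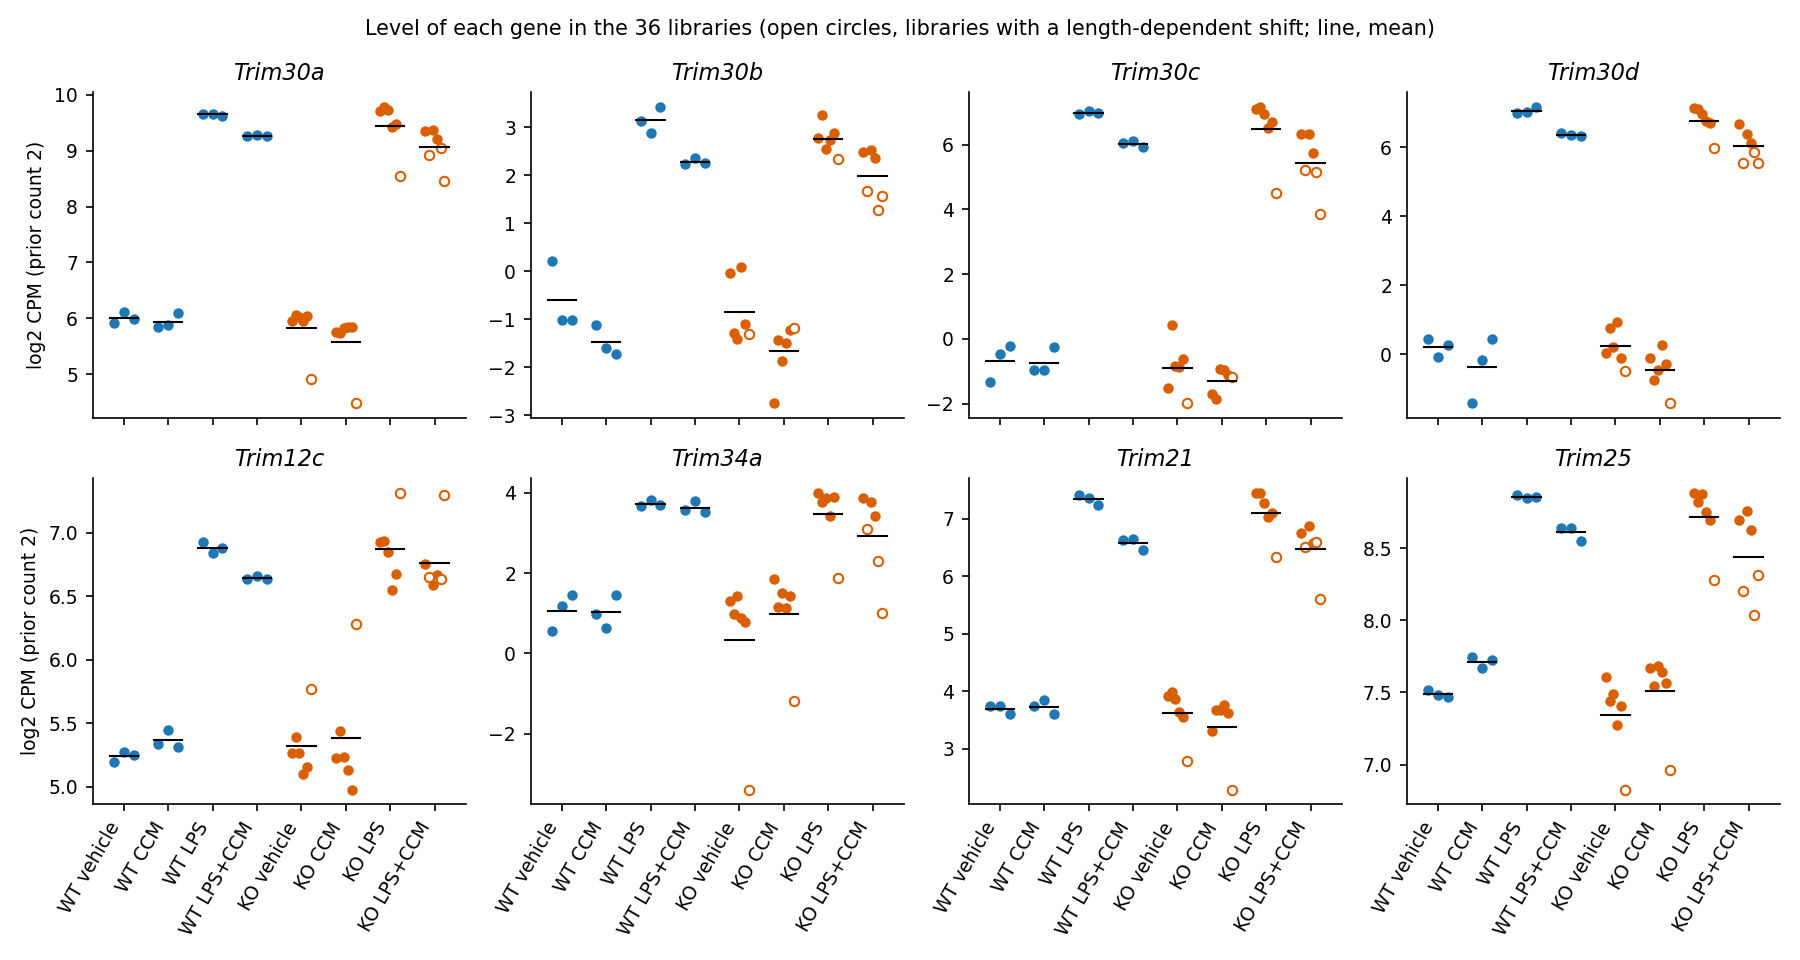
Level of each of the 8 genes as log2 CPM (prior count 2) in the 36 libraries, grouped by genotype (WT blue, KO orange) and treatment; the line is the group mean and open circles are the 6 libraries with a length-dependent shift. All libraries with LPS lie above all libraries without it in WT for each gene, and WT LPS+CCM lies below WT LPS for 7 genes, with Trim34a overlapping.

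The effect of LPS was examined first in WT. All 8 genes rose (edgeR quasi-likelihood test, Benjamini-Hochberg adjusted over 14501 genes), beside 30.6% of all genes tested that were called higher, and in all 8 the LPS libraries lay above the vehicle libraries, beside 31.7% of all genes. Trim30c had 0.304, 0.621 and 0.763 CPM with vehicle and 124, 132 and 125 with LPS, a 224-fold rise (log2 7.80 ± 0.16 SE, adjusted p = 7.65e-11). Trim30d went from 1.25, 0.843 and 1.10 CPM to 126, 130 and 143 (log2 6.97 ± 0.11, adjusted p = 3.32e-11). Both were close to silent without LPS, at 8 to 36 counts per library. Trim30a, the most abundant with LPS, went from 60.4, 68.8 and 63.7 CPM to 808, 813 and 793, a 12.8-fold rise (log2 3.67 ± 0.07, adjusted p = 7.08e-11). Trim30b, the weakest paralog, went from 1.06, 0.399 and 0.397 CPM to 8.68, 7.25 and 10.6 (log2 3.87 ± 0.34, adjusted p = 4.06e-06). The 4 Trim30 paralogs thus spanned log2 3.67 to 7.80.

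The antibody receptor gene Trim21 went from 13.3, 13.4 and 12 CPM to 170, 165 and 151 in WT, 12.8-fold (log2 3.68 ± 0.08, adjusted p = 1.06e-10). Trim34a went from 1.37, 2.17 and 2.62 CPM to 12.5, 14.0 and 12.9 (log2 2.69 ± 0.22, adjusted p = 2.14e-06), with the reservation on shared reads above. Its near copy Trim34b moved alike, from a mean of 2.68 to 20.1 CPM (log2 2.93). Trim12c, already well expressed, went from 36.6, 38.7 and 38.0 CPM to 122, 115 and 118, 3.19-fold (log2 1.67 ± 0.06, adjusted p = 5.93e-09). Trim25 had the smallest rise of the 8, from 183, 178 and 177 CPM to 467, 460 and 463, 2.63-fold (log2 1.40 ± 0.05, adjusted p = 4.76e-09). The fold did not follow the starting level alone, as Trim30a stood above Trim12c with vehicle and rose more. When libraries were scaled by total counts alone, the median of all genes moved from -0.05 to -0.47 in WT and the 8 log2 changes were 0.99 to 7.40, so that each stood above that median by either scaling.

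In KO macrophages LPS also raised all 8 genes, beside 22.4% of all genes called higher, and in all 8 the LPS and vehicle libraries did not overlap, beside 15.3% of all genes. Trim30c had a lowest, median and highest value of 0.155, 0.456 and 1.25 CPM with vehicle and 22.5, 114 and 144 with LPS (log2 7.58 ± 0.53, adjusted p = 7.7e-08). Trim30a had 29.98, 63.5 and 66.4 CPM with vehicle and 376, 777 and 883 with LPS (log2 3.63 ± 0.23, adjusted p = 2.52e-08). Trim21 had 6.82, 13.4 and 15.8 CPM against 80.8, 146 and 175 (log2 3.48 ± 0.22, adjusted p = 2.48e-08). In each, the lowest value of both groups was KO replicate 6. The other log2 changes were 6.58 for Trim30d, 3.65 for Trim30b, 2.79 for Trim34a, 1.56 for Trim12c and 1.37 for Trim25. Without KO replicate 6 all 8 were called, at 1.35 to 7.67.

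Whether the LPS effect depended on the genotype was tested as an interaction across WT and KO libraries. The differences between KO and WT in the log2 effect of LPS were -0.38 to 0.11 over the 8 genes, with unadjusted p of 0.307 to 0.981, and 0 were called with edgeR or DESeq2 and 0 had an unadjusted p under 0.05, beside 0% of 15093 genes called. The 95% interval was -0.68 to 0.64 for Trim30a, -0.81 to 0.46 for Trim21, -0.41 to 0.40 for Trim25 and -1.75 to 1.32 for Trim30c. Differences in the LPS effect anywhere within these bounds are thus not excluded. Without the shifted libraries the differences were -0.39 to 0.072, again with 0 called, and the interval was -0.27 to 0.21 for Trim30a, -0.52 to 0.13 for Trim21 and -0.24 to 0.17 for Trim25. KO and WT were also compared directly. With vehicle the log2 differences were -0.21 to 0.16 and with LPS -0.36 to 0.04. In both, 0 of 8 genes were called with edgeR or DESeq2, 0 had an unadjusted p under 0.05 and 0 had groups that did not overlap. Of all genes 0% were called in either with edgeR, and DESeq2 called 1 gene with vehicle and 2 with LPS. Of all genes, 0.209% with vehicle and 0.464% with LPS lay wholly higher in KO and 1.07% and 0.732% wholly lower. With LPS, 7 of the 8 were lower in KO, and the largest difference was that of Trim30b (log2 -0.36, unadjusted p = 0.0996). Without KO replicate 6, the shifted replicate in these groups, the differences were -0.074 to 0.25 with vehicle and -0.30 to 0.085 with LPS, with 0 called.

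CCM without LPS was examined next. In WT, 7 of the 8 genes passed the filter on low counts, since Trim30b had 5 to 28 counts per library, and 0 of 7 were called with edgeR, beside 0.057% of all genes. Trim25 had the clearest difference, with 183, 178 and 177 CPM with vehicle and 215, 203 and 212 with CCM. The log2 difference was 0.24 ± 0.05, with a 95% interval of 0.12 to 0.35 (edgeR, unadjusted p = 0.00115, adjusted p = 0.146). Trim25 was the only member with an unadjusted p under 0.05 with edgeR, beside 1404 of 14024 genes. It was also the only one called with DESeq2 (adjusted p = 0.00353), beside 241 of 14024 genes. Trim12c had 36.6, 38.7 and 38.0 CPM with vehicle and 40.3, 43.4 and 39.7 with CCM (log2 0.13, unadjusted p = 0.0678). In these 2 genes the CCM libraries lay above the vehicle libraries, beside 7.11% of all genes, and in Trim30b they lay below them, beside 8.26%. The intervals of Trim30a (-0.26 to 0.15) and Trim21 (-0.19 to 0.27) were narrow around 0, whereas those of Trim30c (-1.11 to 0.92) and Trim30d (-1.46 to 0.62) were wide, as both had under 40 counts per library.

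In unstimulated KO macrophages 6 genes could be tested, Trim30b and Trim30c being too low, and 0 were called with edgeR or DESeq2. Of all genes, 0% were called with edgeR and 42 of 13799 with DESeq2. The 1 member with an unadjusted p under 0.05 with edgeR was Trim30d (log2 -0.75, unadjusted p = 0.0398), beside 333 of 13799 genes. Trim25 had a lowest, median and highest value of 113, 172 and 195 CPM with vehicle and 124, 195 and 206 with CCM (log2 0.16, 95% interval -0.13 to 0.46). Trim30a had 29.98, 63.5 and 66.4 CPM with vehicle and 22.1, 55.3 and 57.4 with CCM (log2 -0.23). Leaving out KO replicate 6, whose values were the lowest of each group, Trim30a was called lower (log2 -0.22, adjusted p = 0.0381), as it was with the replicate number as a block (log2 -0.24, adjusted p = 0.029). These fits called 141 of 13899 and 429 of 13799 genes in all.

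**Figure D3:**
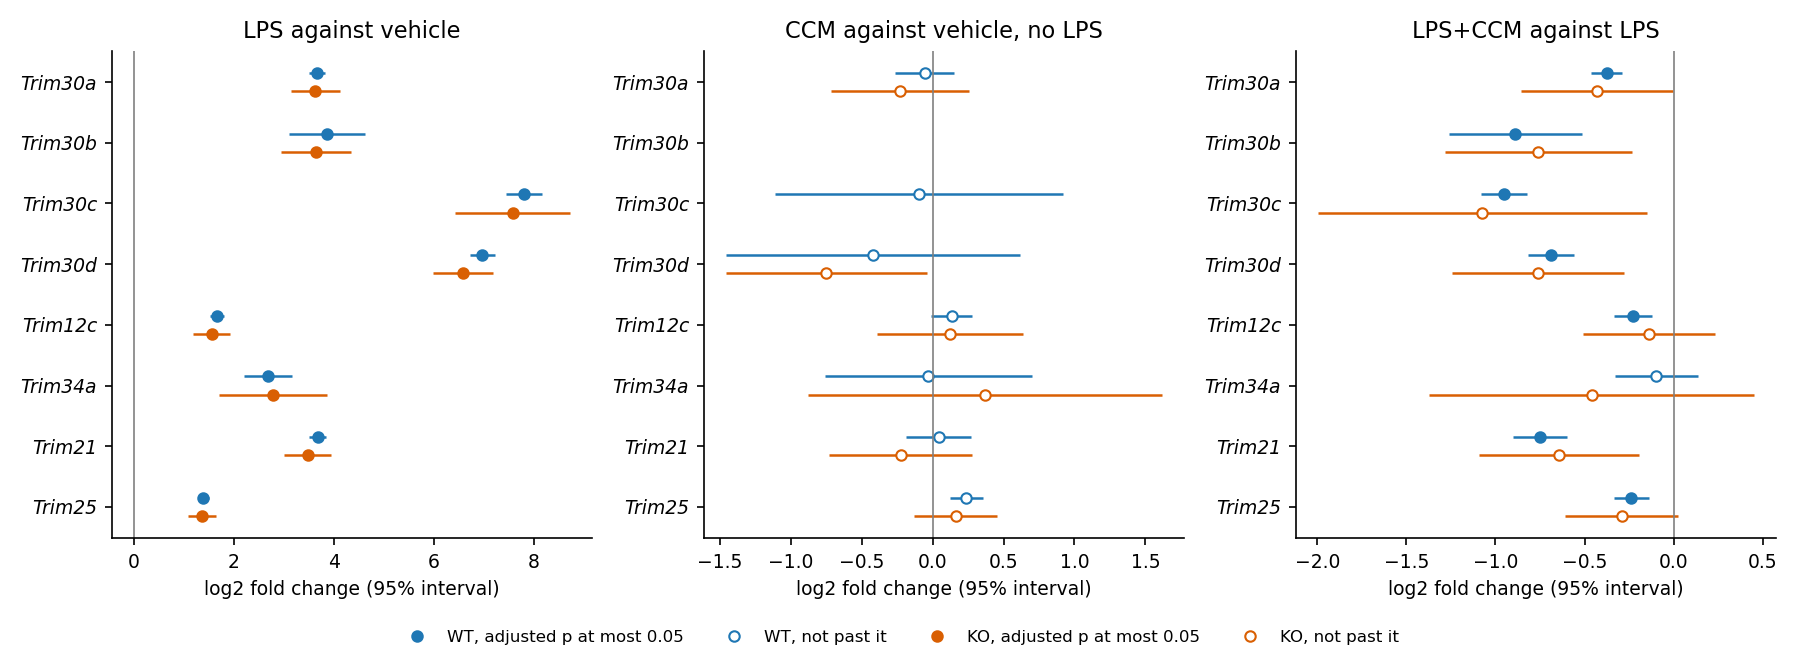
Log2 fold change with its 95% interval for each of the 8 genes in WT (blue) and KO (orange), for LPS against vehicle, CCM against vehicle and LPS+CCM against LPS; filled circles have an adjusted p of at most 0.05 with edgeR, and genes too low to test have no point. All 16 LPS effects are filled, 7 WT effects of CCM under LPS are filled with estimates below 0, and the KO intervals are wider than the WT intervals in each panel where both are drawn, except for Trim30b with LPS and Trim30d with CCM.

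CCM given with LPS lowered 7 of the 8 genes in WT relative to LPS alone, beside 7.78% of all genes called lower, and in the same 7 the LPS+CCM libraries lay below the LPS libraries, beside 15.8% of all genes. Trim30c had 124, 132 and 125 CPM with LPS and 66.4, 69.0 and 60.5 with LPS+CCM, a fall of 48.3% (log2 -0.95 ± 0.06, adjusted p = 1.83e-05). Trim30b fell by 46.0%, from 8.68, 7.25 and 10.6 to 4.62, 5.03 and 4.64 CPM (log2 -0.89 ± 0.17, adjusted p = 0.00711). Trim30d fell by 38.0%, from 126, 130 and 143 to 84.3, 81.7 and 80.3 CPM (log2 -0.69 ± 0.06, adjusted p = 7.37e-05). Trim30a, the most abundant paralog, fell by 23.0%, from 808, 813 and 793 to 614, 624 and 612 CPM (log2 -0.38 ± 0.04, adjusted p = 0.00019). All 4 paralogs of the cluster thus fell, at 23.0 to 48.3%.

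Trim21 fell by 40.6% in WT, from 170, 165 and 151 to 99.4, 100.2 and 87.4 CPM (log2 -0.75 ± 0.07, adjusted p = 9.73e-05). The falls of Trim25 and Trim12c were smaller. Trim25 went from 467, 460 and 463 to 399, 399 and 375 CPM (log2 -0.24 ± 0.04, adjusted p = 0.00599) and Trim12c from 122, 115 and 118 to 99.6, 101.3 and 99.5 (log2 -0.23 ± 0.05, adjusted p = 0.0115). Trim34a was not called, with 12.5, 14.0 and 12.9 CPM with LPS and 11.7, 13.7 and 11.4 with LPS+CCM (log2 -0.10, 95% interval -0.33 to 0.14, adjusted p = 0.629). With LPS+CCM all 8 genes remained above their vehicle levels. The median over the 8 was -0.53, beside 0.01 over all genes tested. With all 36 libraries in 1 fit, which shares 1 spread per gene between WT and KO, 0 of the 8 were called at nearly the same log2 changes. With total counts alone Trim12c was not called (log2 -0.15, adjusted p = 0.0562).

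Since genes raised by LPS may as a class respond to CCM, the same counts were made for genes raised by LPS in KO, whose libraries are separate from those of the WT comparison. Of 3057 such genes, 27.4% were called lower with CCM under LPS in WT and 1.67% higher. Of the 1641 raised by more than 1 on the log2 scale, to which all 8 TRIM genes belong, 40.4% were called lower and 81.8% had an estimate below 0, with a median of -0.24. Genes raised by LPS in KO by more than 1 made up 62.7% of all genes that were called lower with CCM under LPS in WT.

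In KO macrophages the estimates for CCM under LPS were below 0 for all 8 genes, but 0 were called with edgeR or DESeq2. Of all 13386 genes, 15 (0.112%) were called with edgeR and 200 with DESeq2. With edgeR 5 of the 8 had an unadjusted p under 0.05, beside 1070 of all genes tested. Some of the 8 were called lower in other fits. With the replicate number as a block these were Trim30a, Trim30c, Trim30d and Trim21, beside 554 of 13386 genes called lower. The numbers are not shown to pair every library here. With voom quality weights the same 4 and Trim30b were called, beside 497 of 13386 genes called lower. Trim30c had a lowest, median and highest value of 22.5, 114 and 144 CPM with LPS and 14.3, 45.4 and 80.004 with LPS+CCM (log2 -1.07 ± 0.43, 95% interval -2.0 to -0.15, adjusted p = 0.507). Trim21 had 80.8, 146 and 175 CPM against 48.5, 96.0 and 117 (log2 -0.64 ± 0.21, 95% interval -1.09 to -0.20, adjusted p = 0.352). Trim30d had 62.5, 115 and 140 CPM against 46.4, 63.7 and 101 (log2 -0.76 ± 0.22, adjusted p = 0.273). In all 8 genes the groups overlapped, as they did in all but 0.672% of genes that lay wholly lower and 0.702% wholly higher. Trim30a was at -0.43, Trim30b at -0.76, Trim34a at -0.46, Trim25 at -0.29 and Trim12c at -0.14 on the log2 scale. The median over the 8 was -0.55, beside 0.00 over all genes. Of the 1862 genes that LPS raised in WT by more than 1 on the log2 scale, to which all 8 belong, 78.2% had an estimate below 0 in this KO comparison, with a median of -0.26.

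The shifted libraries bear on these KO values, as 3 of the 6 LPS+CCM libraries are among them against 1 of the 6 LPS libraries. In LPS+CCM replicates 2 and 5, Trim30c was at 36.8 and 35.5 CPM, below the 53.9 to 80.004 of the unshifted replicates, and Trim25 at 295 and 263 CPM, below their 394 to 432. Without all shifted libraries the estimates were nearer to 0, at -0.75 for Trim30c, -0.53 for Trim30d, -0.53 for Trim21, -0.31 for Trim30a, -0.11 for Trim25 and -0.11 for Trim34a. Of these, Trim30c (adjusted p = 0.035) and Trim21 (adjusted p = 0.0245) were called, beside 471 of all 13766 genes in that fit. Without KO replicate 6 alone the same 2 were called, Trim30c at -1.08 (adjusted p = 0.0487) and Trim21 at -0.61 (adjusted p = 0.0208), beside 170 of all 13429 genes. The part of the length dependence in these values was not tested.

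The genotype by CCM interaction under LPS was tested over the 18 libraries with LPS. The KO effect minus the WT effect was -0.35 to 0.14 over the 8 genes, with unadjusted p of 0.585 to 0.902. With edgeR and with DESeq2 0 were called, beside 0% of all genes, and 0 had an unadjusted p under 0.05. The 95% interval was -0.53 to 0.78 for Trim21, -0.65 to 0.57 for Trim30a, -0.49 to 0.41 for Trim25 and -1.44 to 1.23 for Trim30c. The log2 effects of CCM in WT were -0.75, -0.38, -0.24 and -0.95 in the same order, so that a KO effect equal to that of WT and a KO effect of 0 both lie within each interval. Without the 6 shifted libraries the interaction was -0.02 to 0.47 over the 8 genes, again with 0 called and 0 with an unadjusted p under 0.05 (edgeR, 0 of 14279 genes called). Its 95% interval then was -0.087 to 0.51 for Trim21, -0.17 to 0.28 for Trim30a, -0.24 to 0.62 for Trim30c and -0.20 to 0.50 for Trim30d, and the upper bound of each of these 4 was smaller than the fall in WT. For the other 4 it was not, with intervals of -0.043 to 0.27 for Trim25, -0.029 to 0.97 for Trim30b, -0.13 to 0.33 for Trim12c and -0.42 to 0.38 for Trim34a.

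Whether CCM acted differently with and without LPS was tested as an interaction over the 12 WT libraries. Of the 8 genes 3 were called, beside 2.09% of all genes called and 1.62% called lower. The log2 effect of CCM was lower with LPS than without by 0.81 ± 0.11 for Trim21 (log2 -0.81, adjusted p = 0.00326), by 0.49 ± 0.06 for Trim25 (log2 -0.49, adjusted p = 0.00297) and by 0.38 ± 0.08 for Trim12c (log2 -0.38, adjusted p = 0.0193). For Trim25 and Trim12c the CCM libraries lay above vehicle without LPS and below LPS with it. Trim30a was at -0.34 (adjusted p = 0.107) and was called with DESeq2 (adjusted p = 0.00827), beside 688 of 14747 genes. Trim30c was at -0.87 ± 0.34 (adjusted p = 0.258), with few counts in the unstimulated groups. The other 3 were at -0.29 to 0.27. Trim12c was not called without WT CCM replicate 2 (adjusted p = 0.0537), without WT LPS+CCM replicate 3 (adjusted p = 0.0533) or with total counts alone (adjusted p = 0.0809), and with all 36 libraries in 1 fit 0 of the 8 were called. In KO the same test called 0 of 8 with edgeR or DESeq2, beside 0.00685% of all genes with edgeR and 12 of 14588 with DESeq2. With edgeR 1 of the 8 had an unadjusted p under 0.05 (Trim25, log2 -0.44, unadjusted p = 0.0368), beside 536 of 14588 genes. Without the shifted libraries edgeR again called 0, beside 27 of 15011 genes. An unadjusted p under 0.05 was then found for Trim25 (log2 -0.29, unadjusted p = 0.00732) and Trim21 (log2 -0.34, unadjusted p = 0.0399). How many of all genes had one in that fit was not counted.

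Genes of interferon signalling, its production and its feedback were examined as a list of 12. In WT, LPS raised 11 of 12, beside 30.6% of all genes called higher. Among the 11 were Stat2 (log2 3.31), Irf9 (log2 1.73) and Irf7, which amplifies interferon production (18.9 to 1313 CPM, log2 6.15). The feedback inhibitor Usp18 rose by 7.45 and Socs1 by 3.08. Irf3 was not called (log2 0.19, adjusted p = 0.0863). Ifnb1 itself was at 0 counts in all 3 WT vehicle libraries and at 33, 30 and 42 counts with LPS. With CCM under LPS in WT, 6 of 12 were called lower and 0 higher, with a list median of -0.32, beside 7.78% of all genes called lower and 40.4% of the genes that LPS raised by more than 1 on the log2 scale in KO. Ifnb1 fell from 1.95, 1.30 and 1.69 CPM to 0.474, 0.367 and 0.261 (log2 -2.14, adjusted p = 0.00322), on 5 to 8 counts per library with CCM. In KO it was at 0.977 to 3.24 CPM with LPS and 0.337 to 1.22 with LPS+CCM. Usp18 (-0.64), Irf7 (-0.45), Stat2 (-0.32) and Tyk2 (-0.32) were among the others that fell, while Ifnar1 (0.06), Ifnar2 (0.03), Irf9 (-0.12) and Irf3 (-0.02) were not called. In KO, LPS raised 11 of 12, beside 22.4% of all genes called higher. CCM under LPS gave 0 calls in KO, beside 0.112% of all genes, with a list median of -0.31.

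Known partners and substrates of these TRIM proteins formed a list of 10. In WT, LPS raised 9 of 10, beside 30.6% of all genes called higher, and lowered Mavs, the adaptor of RIG-I (log2 -0.30, adjusted p = 0.00218). The largest rises were those of Isg15 (log2 7.69) and of Ddx58, which encodes RIG-I (26.5 to 592 CPM, log2 4.51). Rnf135, a further ligase for RIG-I (1.83), and Zc3hav1, which encodes ZAP (1.86), followed, and the TRIM30a targets Tab2 and Tab3 rose by 1.03 and 0.23. With CCM under LPS in WT, Ddx58 (-0.47), Isg15 (-0.43), Zc3hav1 (-0.30) and Rnf135 (-0.24) fell and Mavs rose (0.35). These 4 of 10 called lower stand beside 7.78% of all genes. Among genes that LPS raised in KO by more than 1 on the log2 scale, the share was 40.4%. The TRIM21 partners Vcp (0.08), Ube2n (-0.06) and Ube2w (-0.18), and Tab2 (0.06) and Tab3 (-0.00), were not called. In KO, LPS raised 8 of 10, beside 22.4% of all genes called higher, and CCM under LPS gave 0 calls, beside 0.112% of all genes.

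The other 60 TRIM genes of the table gave a mixed picture. In WT, 33 were tested for LPS, of which 9 rose and 12 fell, beside 4441 and 4698 of all 14501 genes. Their median was -0.12, beside 3.68 for the 8 genes, which were chosen as interferon-induced. Of the other TRIM genes, those with the largest change were Trim34b (2.93), Trim56 (2.36), Trim47 (-2.23), Trim13 (2.11) and Trim14 (1.90). With CCM under LPS in WT, 32 were tested, 4 fell and 1 rose, beside 1057 and 564 of all 13579 genes. The 4 were Trim36 (-0.52), Trim13 (-0.41), Trim26 (-0.34) and Trim14 (-0.34), each of which LPS had raised in WT, and the 1 that rose was Trim65 (0.66), which LPS had lowered (-1.11). Of 8 other TRIM genes that LPS raised in KO, 4 were called lower with CCM under LPS in WT and 7 had an estimate below 0. Of all 3057 genes that LPS raised in KO, 27.4% were called lower there and 73.6% had an estimate below 0.

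**Figure D4:**
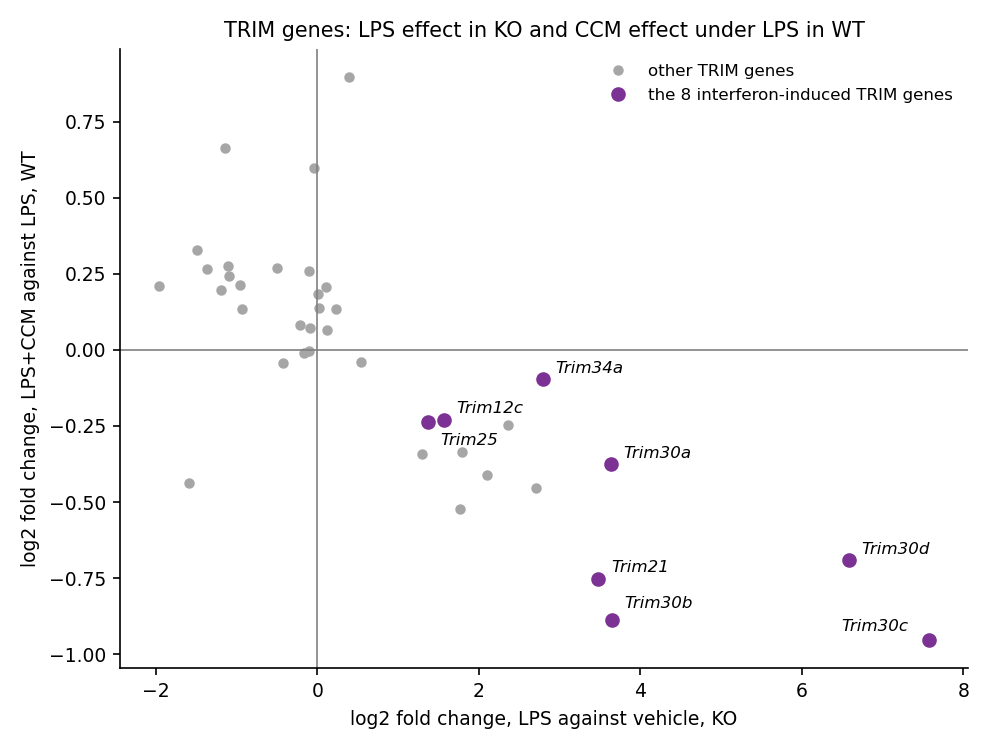
Log2 fold change with LPS in KO (horizontal axis) and with CCM under LPS in WT (vertical axis), from separate libraries, for the 8 genes (purple) and 31 other TRIM genes tested in both (grey). The 8 genes lie at 1.37 or more on the horizontal axis and below 0 on the vertical, with Trim30c and Trim30d farthest right, and the other TRIM genes lie on both sides of 0 on each axis.

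For each of the 8 genes, the 3 genes with the most similar pattern over the 8 group means were found among 12562 genes, by the mean absolute difference of centred log2 CPM. Trim30a was closest to Malt1 (0.06), Oas2 and Parp12 (both 0.07). Trim21 was closest to Gfi1, Parp9 (both 0.08) and Sp110 (0.09). Trim25 was closest to Ncoa7 (0.04), Cdyl2 and 9330159M07Rik (both 0.05), and Trim12c to Stard3, Rnf135 and Trpm4 (each 0.04). Trim30b was closest to Klrk1, Kynu (both 0.09) and Mmp25 (0.12), Trim30c to Olfr56 (0.11), Il12a (0.19) and Serpina3f (0.20), and Trim30d to Mir155hg, Gbp7 (both 0.14) and Mx2 (0.15). For Trim34a these were Gm42547 (0.12), Mapkbp1 (0.14) and Gm5345 (0.15). Among the 8 genes themselves the closest pairs were Trim30a with Trim21 (0.14) and Trim12c with Trim25 (0.16), and the farthest was Trim30c with Trim25 (3.0). These differences are descriptions over 8 groups, without a test.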

How the data were processed

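RNA-seq was analysed for 36 libraries of BMDMs (WT, n = 3, and KO, n = 6, in each of 4 treatments). Per the labels and methods, the authors selected poly(A) RNA, trimmed paired reads with fastp, aligned them with HISAT2 2.0.5 to mm10 and made the gene counts with featureCounts 1.5.0-p3. The deposited values are raw counts, and all 36 columns were used. For each comparison, only the libraries of its groups entered the fit with edgeR 4.0.16 in R 4.3.3 (filterByExpr, TMM, quasi-likelihood F test, two-sided, Benjamini-Hochberg over all genes tested, 0.05), without a block. The study's own test was DESeq2, used here (1.42.0) as an alternative beside limma 3.58.1 (voom with quality weights). CPM used TMM factors over all 36 libraries, and log2 CPM a prior count of 2. The fits were tested on simulated data.

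The 8 genes and the gene lists were chosen with earlier results of these data known. The text names the 8 genes, the genes of the lists, up to 5 other TRIM genes per comparison with the largest called change, and 3 genes most alike in pattern. A gene of the interferon signalling list is counted in it but not reported here by name. Leaving out the length-shifted libraries, and combining the block with no KO replicate 6, were chosen after seeing the data.

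Replicates are numbered in the labels, which do not say that each is a separate mouse. If they are not, p-values measure only the spread between these samples. Libraries of a group differed by more than counting noise (ratio of chi-square to its degrees of freedom, lowest 4.08), and precision is thus set by replicate spread, except for genes with few counts. Same-numbered libraries deviated together (each correlation over 0.1) for LPS in KO (0.298 to 0.83), CCM in unstimulated KO (0.337 to 0.844) and CCM under LPS in WT (0.151 to 0.36), against medians of 0.172, 0.221 and -0.132 between different numbers. Positions and overlaps were taken from GENCODE M21, and promoter windows from RefSeq (GRCm38.p6).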

Additional observations from a re-analysis of the deposited data

Results flagged for a closer look

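In groups of 6, a library was marked where its gap to the nearest other library, divided by the range of the group, exceeded Dixon's limit of 0.625. Of 32 groups (8 genes in 4 KO treatments), 8 held such a library, where chance marks about 1 group in 20. In 7 of the 8 it was KO replicate 6, which also had the length-dependent shift; the part of that shift was not tested. KO replicate 6 was lowest for Trim30a with vehicle (29.98 CPM) and CCM (22.1 CPM), for Trim25 with CCM (124 CPM) and LPS (311 CPM) and for Trim34a with vehicle (0 CPM, from 0 counts). It was highest for Trim12c with CCM (77.6 CPM) and LPS+CCM (157 CPM). The other was KO replicate 2, highest for Trim30c with vehicle (1.25 CPM).

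In WT, the effect of CCM differed with and without LPS by the interaction test of edgeR for 3 genes. The log2 difference of effects was -0.81 for Trim21 (adjusted p = 0.00326), -0.49 for Trim25 (adjusted p = 0.00297) and -0.38 for Trim12c (adjusted p = 0.0193).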

How the results depend on the processing

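The counts of the 8 genes called with LPS in WT and KO were 8 in all alternatives, and those for both genotype interactions, for LPS by CCM in KO and for KO against WT were 0 in all. For CCM under LPS in WT the count was 6 with total counts alone, 0 with all 36 libraries in 1 fit and 7 in the others. For CCM under LPS in KO it was 4 with the replicate number as a block. The same-numbered correlations there were -0.1 to 0.81, with a median of 0.55 against -0.0026 between different numbers. Since the lowest was not over 0.1, the numbers are not shown to pair every library. The count was 5 with voom quality weights, 3 with the block and no KO replicate 6 and 2 without the length-shifted libraries. It was 0 to 2 when 1 KO replicate was left out, the 2 being without replicate 6. For CCM in unstimulated KO it was 1 (Trim30a, lower) with the block, with voom quality weights, without the length-shifted libraries and with the block and no KO replicate 6, and 0 to 1 when 1 KO replicate was left out. For CCM in unstimulated WT it was 1 with DESeq2. For LPS by CCM in WT it was 0 with all 36 libraries in 1 fit, 2 with total counts alone, 4 with DESeq2 or without a filter on low counts, and 2 to 3 when 1 library was left out. The causes were not tested.

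Values that changed sign were all of genes not called. Changes of sign in LPS by CCM in KO and in KO against WT are not listed here. Leaving out 1 library gave, for CCM in unstimulated WT, -0.15 to 0.0076 for Trim30a, -0.44 to 0.22 for Trim30c, -0.31 to 0.20 for Trim34a and -0.013 to 0.096 for Trim21. For LPS by CCM in WT it gave -0.34 to 0.56 for Trim30b, -0.67 to 0.30 for Trim30d and -0.32 to 0.20 for Trim34a, which was 0.018 with total counts alone. For CCM in unstimulated KO, Trim12c was -0.046 to 0.17 with 1 KO replicate left out, -0.046 without the shifted libraries, -0.049 with the block and no KO replicate 6 and -0.10 with voom quality weights. For the genotype by CCM interaction under LPS, leaving out 1 replicate gave -0.070 to 0.056 for Trim30a, -0.033 to 0.32 for Trim30b, -0.23 to 0.084 for Trim30c, -0.14 to 0.095 for Trim30d and -0.079 to 0.024 for Trim25. In the same interaction, Trim30a, Trim30c, Trim30d and Trim25 were 0.053, 0.19, 0.15 and 0.11 without the shifted libraries, and 0.035, 0.089, 0.063 and 0.060 with voom quality weights. For genotype by LPS the ranges with 1 replicate left out were -0.081 to 0.036 for Trim30a, -0.83 to 0.22 for Trim30b, -0.53 to 0.12 for Trim30c, -0.11 to 0.31 for Trim34a and -0.040 to 0.026 for Trim25, and without a filter on low counts Trim30a was 0.0040 and Trim25 0.017, or 0.0038 with the block.

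Over all genes, total counts alone turned the calls for LPS in WT from 4441 higher and 4698 lower to 2551 and 8060, for LPS in KO from 3060 and 3373 to 1825 and 5708, for CCM under LPS in WT from 564 and 1057 to 1539 and 733, and for LPS by CCM in WT from 69 and 239 to 230 and 117. Upper-quartile scaling gave 3438 and 6099, and 2360 and 4396, for LPS. With the block, 3220 genes were called for CCM under LPS in WT in place of 1621, and 9774 in place of 6433 for LPS in KO. It called 777 in place of 15 for CCM under LPS in KO and 429 in place of 0 for CCM in unstimulated KO. Among the 8 genes, the block changed calls only in these last 2 comparisons, as given above. Over all alternatives together, the number of genes called ranged from 5644 to 10611 for LPS in WT, 5429 to 10023 for LPS in KO, 0 to 377 for CCM in unstimulated WT, 0 to 729 in unstimulated KO, for CCM under LPS from 17 (all 36 libraries in 1 fit) to 3220 in WT, from 0 to 777 in KO, 0 to 721 for LPS by CCM in WT and 0 to 100 in KO, and was at most 2 for each genotype comparison. For CCM in unstimulated WT (same-numbered correlations of 0.0511 to 0.466) and for LPS in WT (0.0469 to 0.173), the numbers are not shown to pair libraries either. No paired analysis was possible for KO against WT, because same-numbered libraries of different genotypes come from different mice. Depth limits Trim30b, Trim30c and Trim30d without LPS, where most libraries held under 40 counts.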
